A study of Homo sapiens with 4 samples.

Results

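The albumin gene family was examined through the DNA loops listed at its 4 human members, ALB, AFP, AFM and GC, in POLR2A HiChIP-seq of HepG2 cells. A loop was taken when at least 1 of its anchors overlapped the body of a member gene, or 50 kb on either side of it, in the GENCODE 44 annotation of GRCh38. By this rule 19 distinct loops of the 77862 in both lists belonged to the family, 18 of them in mock-treated cells and 4 in cells treated with pyridostatin (PDS). HiChIP-seq joins proximity ligation in nuclei to immunoprecipitation, here of POLR2A, the largest subunit of RNA polymerase II (RNAPII), and each paired-end tag (PET) records a pair of fragments that were ligated. HepG2 is a line from a human hepatocellular carcinoma. The mock group received sterile water and the other group 20 µM PDS, a small molecule that binds G-quadruplex (G4) structures, both for 24 h, with 2 biological replicates each. No other agent or genetic change is given in the labels, and because these lists hold no expression values, the hepatic identity of the cells was not checked against marker RNA.

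ALB encodes albumin, the most abundant protein of plasma and a carrier of fatty acids, hormones and drugs. AFP encodes alpha-fetoprotein, its fetal counterpart, which the liver shuts off after birth and which hepatocellular carcinomas often express again. AFM encodes afamin, a vitamin E-binding glycoprotein, and GC encodes the vitamin D-binding protein. The genes arose by duplication of a common ancestor, and in mammals the AFP promoter is known to be served by enhancers in the interval that separates it from ALB. FOXA and C/EBP factors are among the classical hepatic activators of these promoters.

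On chromosome 4, ALB (ENSG00000163631) runs from 73397114 to 73421482, AFP (ENSG00000081051) from 73431138 to 73456174 and AFM (ENSG00000079557) from 73481745 to 73504001, all on the plus strand. The gap between ALB and AFP is 9.66 kb and that between AFP and AFM 25.6 kb. GC (ENSG00000145321) lies apart on the minus strand, from 71741696 to 71804041, with 1593 kb between it and ALB. The loops used 14 anchors, numbered here 1 to 14 in order of position, over 293 kb from 73342891 to 73635524. Anchor 6, at 73401448 to 73419111, contains the canonical ALB start site at 73404287 and most of the gene. Anchor 7, at 73419751 to 73429932, takes in the 3′ end of ALB and most of the gap to AFP, and anchor 8, at 73430896 to 73441619, contains the canonical AFP start site at 73436221.

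The promoters of the 3 tandem genes are shown because loops ended at those of ALB and AFP and none at that of AFM. Each line gives RefSeq sequence of GRCh38.p14 upstream of the start site, outside annotated exons, with matches to TATAAA, the core of the TATA box, in capitals. RefSeq promoter entries were matched for 3 of the 4 genes, all but GC.
ALB, chr4:73404037-73404254, plus strand: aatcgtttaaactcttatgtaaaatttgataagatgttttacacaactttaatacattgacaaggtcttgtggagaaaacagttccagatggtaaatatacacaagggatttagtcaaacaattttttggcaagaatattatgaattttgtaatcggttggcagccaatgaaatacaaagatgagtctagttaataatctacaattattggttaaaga
AFP, chr4:73435971-73436220, plus strand: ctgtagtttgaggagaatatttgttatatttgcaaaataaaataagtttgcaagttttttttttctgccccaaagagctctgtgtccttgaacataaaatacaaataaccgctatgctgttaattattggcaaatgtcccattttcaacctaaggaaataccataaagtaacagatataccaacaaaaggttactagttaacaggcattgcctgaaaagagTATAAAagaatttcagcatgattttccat
AFM, chr4:73481495-73481744, plus strand: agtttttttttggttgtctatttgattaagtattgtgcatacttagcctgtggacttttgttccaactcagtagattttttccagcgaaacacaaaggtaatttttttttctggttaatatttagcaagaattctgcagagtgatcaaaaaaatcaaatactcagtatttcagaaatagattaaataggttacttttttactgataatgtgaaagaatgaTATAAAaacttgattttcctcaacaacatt
TATAAA lay from -29 to -24 relative to the start site in AFP and from -30 to -25 in AFM. Over 35116 promoters, taken from 250 bases before to 50 after the start site and searched on both strands, 11.5% held it. The printed stretches leave out annotated exons and are shorter than that. The printed ALB stretch had no TATAAA on either strand. It ends at 73404254, before the canonical start site at 73404287, and leaves out the positions where TATAAA lay in AFP and AFM. None of the 3 windows had TGTTTAC, a FOXA motif found in 3.42% of promoters. The printed stretches were AT-rich, with a G+C content of 28.9% for ALB, 31.6% for AFP and 28.0% for AFM. A predicted G4 motif (on either strand, 4 runs of 3 or more G, separated by spacers of 1 to 7 bases) was in none of the 3 windows and in 25.0% of all promoters.

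Among the 14 anchors, 6 held at least 1 such G4 motif. The 2 anchors that hold a motif and were used in the PDS list are 7 and 12. Their motifs follow, with the runs of G in capitals, and the first lies in the gap between ALB and AFP, at -13.2 kb from the AFP start site, while the second lies in an intron of RASSF6.
Anchor 7, chr4:73423030-73423053, plus strand: GGGtgatGGGttatGGGtgatGGG
Anchor 12, chr4:73603474-73603506, plus strand: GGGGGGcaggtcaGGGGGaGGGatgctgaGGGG
Anchors 6 and 8, which contain the ALB and AFP start sites, held none. With spacers of up to 12 bases anchor 8 also held 1 motif and anchor 6 still held none. These are motifs in the reference sequence, and G4 structures in these cells were not analysed here.

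The depth of the libraries is not known from the lists. The listed loops of the whole series held 254647 mock PETs and 67001 PDS PETs, and no loop in either list had fewer than 3 PETs. The paper tabulates these connections under a minimum of 3 PETs, and whether another rule also put a loop on a list is not stated. The count of an unlisted loop is therefore unknown, and it is below 3 only if PETs alone decided. The 81742 distinct anchors of both lists did not overlap each other, and 20678 of the 28928 anchors of the PDS list were also used in the mock list. The 2 replicates of each condition were combined into 1 list, which leaves no spread between replicates and no test between conditions. Intervals given here are 95% intervals of counting error only. Fewer RNAPII-linked contacts and shallower PDS libraries cannot be told apart in these counts.

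In mock-treated cells the ALB window held 17 loops with 79 PETs, the AFP window 16 with 76, the AFM window 6 with 30 and the GC window none. The windows of the tandem genes overlap, so most of these loops are counted for more than 1 gene. Per 10 kb of window, the level was 6.35 PETs at ALB, 6.08 at AFP and 2.45 at AFM. In loops, the counting interval was 9.90 to 27.2 for ALB, 9.15 to 26.0 for AFP and 2.20 to 13.1 for AFM, and because the windows share loops these separate intervals do not test a difference between genes. Per 10 kb, 94.1% of 20033 protein-coding genes had a lower mock level than ALB, 93.4% a lower level than AFP and 68.4% a lower level than AFM.

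Counted over the gene bodies alone, without flanks, the members separated further. The ALB body was touched by 13 mock loops with 64 PETs, the AFP body by 5 loops with 27 PETs, and the AFM and GC bodies by none. The nearest anchor edge lay 21.7 kb from the AFM start site in the mock list and 40.1 kb from it in the PDS list. The 6 mock loops of the AFM window therefore reached its flanks only, 5 of them through anchors 8, 9 and 10 at AFP and 1 through anchor 11, which overlaps the non-coding gene LINC02499 beyond AFM. A loop of 3 PETs joined anchor 11 to the start site of RASSF6, a neighbour on the minus strand.

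GC had no loop in either list, and no anchor of any listed loop lay in its window. The closest mock anchors were 619 kb below and 626 kb above the gene, and the closest PDS anchors 795 kb below and 1366 kb above it. No listed loop spanned the window in either condition. A count of 0 loops has an upper limit of 3.69 by the exact Poisson interval. The GC window had 2.17 MboI sites per kb, close to 2.32 over chromosome 4; MboI is the enzyme that cut the chromatin. Windows without any mock loop occurred at 14.5% of protein-coding genes.

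Anchor 6, with the ALB start site, had the most loops of the 14. It took part in 9 of the 18 mock loops, which together held 49 PETs (36.3 to 64.8, exact Poisson interval). Of all 73492 anchors used in the mock list, 519 (0.706%) had as many loops or more. Anchor 6 is 17664 bp wide, and only 2.73% of all anchors are as wide. Among the mock anchors at least that wide, 10.3% had as many loops, and their median was 3 loops. Its 4 partners downstream held 30 PETs and its 5 partners upstream 19.

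The strongest loop of the family joined anchor 6 to anchor 7, that is, the ALB gene to the gap on its 3′ side, over 14.6 kb between anchor midpoints. The mock list gave it 13 PETs (6.92 to 22.2) and the PDS list 4 (1.09 to 10.2). Of the 19083 mock loops 10 to 20 kb long, 0.367% had as many PETs. That comparison matched midpoint distance and not anchor width. Anchors 6 and 7 are 17664 and 10182 bp wide and nearly adjacent, with facing ends at 73419111 and 73419751. The PDS/mock ratio of the loop between them was 0.308 (0.106 to 0.896). The ratio of 0.263 for the PETs of all listed loops lies inside that interval, but it also counts loops on only 1 list. Among the 46 loops with 13 mock PETs that were in both lists, the median was 5 PDS PETs, and 22 had 4 or fewer. The loop of anchors 6 and 7 is described here because it had the highest mock count of the family.

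The second loop joined the ALB gene to the AFP promoter, anchor 6 to anchor 8, over 26.0 kb. Its mock count was 11 PETs (5.49 to 19.7), and it was not in the PDS list. Of the 14465 mock loops 20 to 50 kb long, 0.622% had as many PETs, and anchor width was again not matched. Among all 114 mock loops with 11 PETs, 46 (40.4%) were likewise missing from the PDS list. These were the only loops of the family with 10 or more PETs, and the rest of chromosome 4 had 2 such mock loops among 1465.

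The third loop of this triangle joined anchor 7 to the AFP promoter at anchor 8 over 11.4 kb. Here the counts were 6 mock and 4 PDS PETs, a ratio of 0.667 with an interval of 0.202 to 2.20. That interval includes both 1 and the 0.263 of all listed loops, a value that also counts loops on only 1 list. Loops of the series in both lists held 39128 mock and 29560 PDS PETs. Between the bodies of ALB and AFP there were 3 mock loops with 20 PETs, of which 1 remained in the PDS list with 4 PETs. ALB to AFM, AFP to AFM and any pair with GC had 0 loops in both lists. Loops on anchors 6, 7 or 8 carried 65 of the 82 mock PETs of the family, 79.3%.

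**Figure D1:**
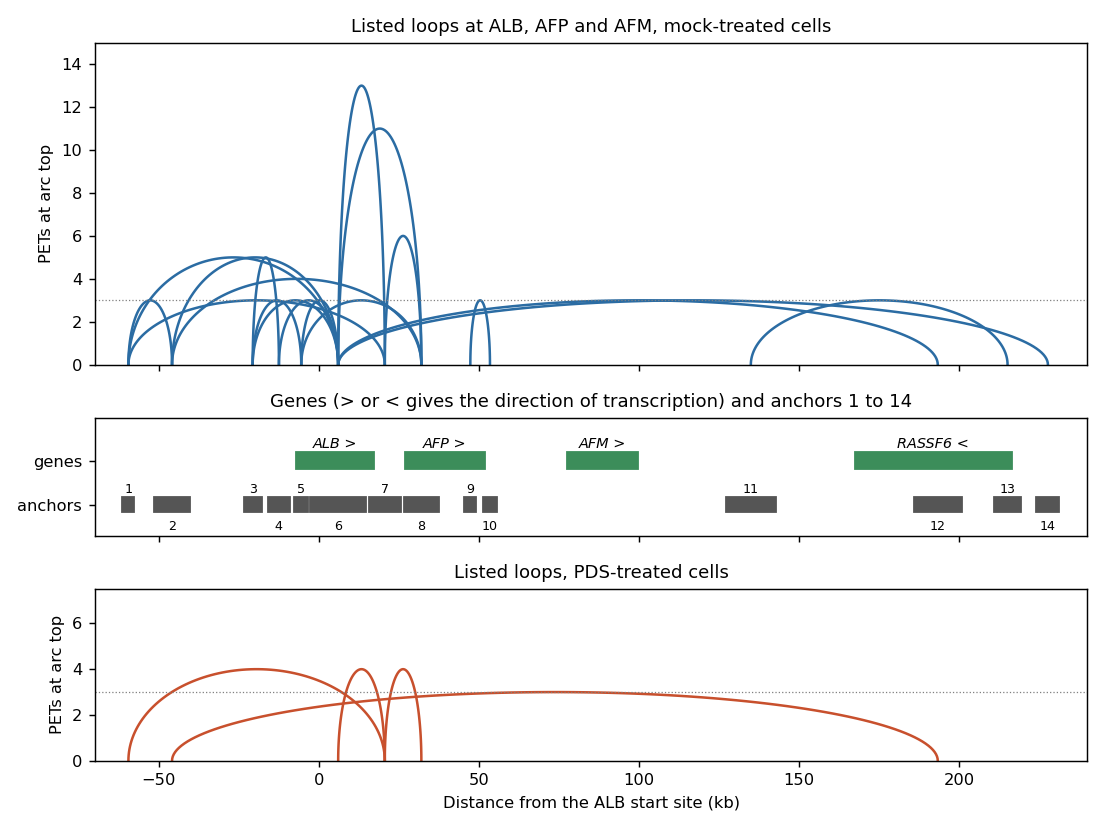
Map of the listed loops at ALB, AFP and AFM in mock-treated cells (top, blue) and PDS-treated cells (bottom, red), against the distance from the ALB start site in kb. Each arc joins the midpoints of its anchors and peaks at its number of PETs, the dotted line marks the lowest listed count of 3 PETs, and the middle strip gives the genes and the anchors 1 to 14. The 2 tallest mock arcs, of 13 and 11 PETs, start from anchor 6 at ALB, and no PDS arc exceeds 4 PETs.

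Upstream of ALB the mock list held a fan of weaker loops. Anchors 1 and 2, in the intergenic sequence at -59.5 and -45.9 kb from the ALB start site, each joined anchor 6 with 5 PETs. Anchor 2 also reached the AFP promoter with 4 PETs over 77.9 kb, and anchor 1 reached anchor 7 with 3 PETs over 80.1 kb. Anchors 3 and 4, at -20.7 and -12.5 kb, joined each other with 5 PETs and each joined anchor 6 with 3 PETs. Anchor 5, at 73396574 to 73400913, contains an alternative ALB start site 7.17 kb upstream of the canonical one. It joined anchors 3, 6 and 8 with 3 PETs each. Of these upstream loops only that from anchor 1 to anchor 7 was in the PDS list, with 4 PETs against 3 in the mock list, a ratio of 1.33 with an interval of 0.334 to 5.32.

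On the far side, ALB reached beyond AFP and AFM toward RASSF6, which encodes a Ras association domain protein. Anchor 6 joined anchor 12 in the RASSF6 body over 187 kb and anchor 14, past its start site, over 222 kb, with 3 PETs each. Neither loop was in the PDS list. The PDS list had instead a loop of 3 PETs from anchor 2, upstream of ALB, to anchor 12 over 239 kb, the only loop of the family not in the mock list. The remaining short loops of 3 mock PETs, from anchor 1 to 2 and from anchor 9 to 10 at the 3′ end of AFP, were not in the PDS list either. For unlisted loops of 3 to 5 mock PETs, the interval of the ratio includes 1 if a PDS count just under the lowest listed one is assumed. With fewer PDS PETs the interval would lie lower. The true PDS counts are unknown, so whether these loops changed cannot be told from the lists. ANKRD17, the next protein-coding gene upstream of ALB, was touched by none of the family's loops.

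**Figure D2:**
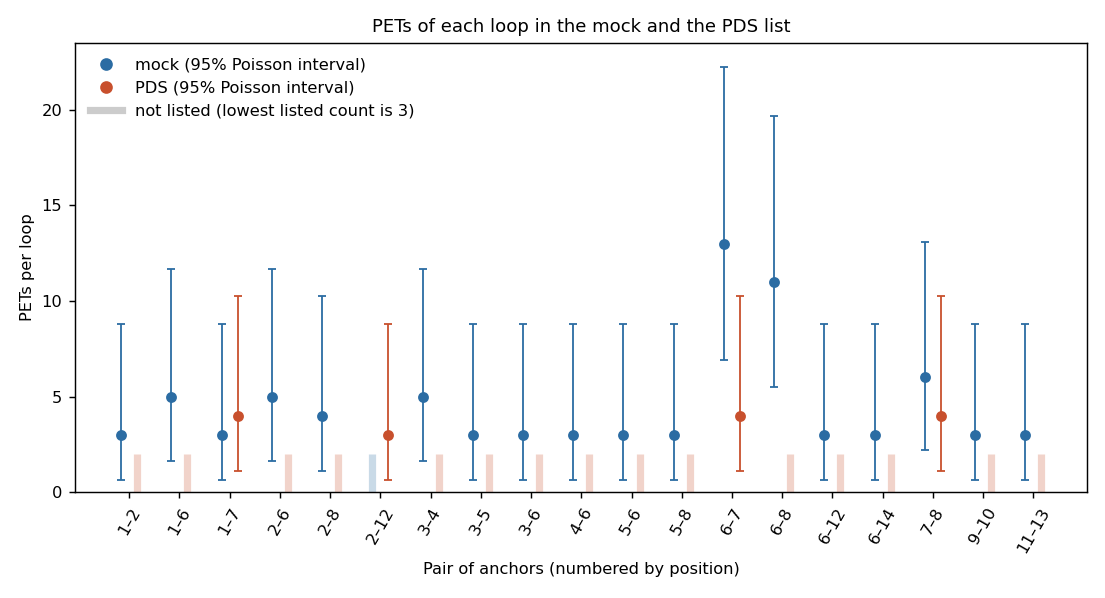
PETs of each of the 19 loops, named by their pair of anchors, in mock-treated (blue) and PDS-treated cells (red). Points are counts with exact 95% Poisson intervals, and pale bars below the lowest listed count of 3 mark loops that were not listed. In mock-treated cells 11 of 18 loops sit at 3 PETs, and the loops of anchors 6 and 7 (13 PETs) and 6 and 8 (11 PETs) stand above the others.

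Summed over the listed loops of the family there were 82 mock PETs (65.2 to 102) and 15 PDS PETs (8.40 to 24.7). The PDS/mock ratio was 0.222 for loops (0.0788 to 0.626) and 0.183 for PETs (0.106 to 0.315). Over the whole series these ratios were 0.283 and 0.263, and over the other loops of chromosome 4 they were 0.216 and 0.200. Both values of the series and both of chromosome 4 lie inside the intervals of the family, so a difference from them was not detectable at this depth. By gene, the ratio of loops was 0.235 in the ALB window (4 against 17), 0.188 in the AFP window (3 against 16) and 0.167 in the AFM window (1 against 6). Of the 11809 protein-coding gene windows with 5 or more mock loops, 94.1% had a ratio of 0.5 or less, and their median was 0.214. ALB, AFP and AFM were among these 94.1%.

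Of the 18 mock loops, 3 were listed again after PDS treatment, 16.7% (5.84 to 39.2%), against 11.0% of all mock loops and 6.62% of the other mock loops of chromosome 4. With anchors extended by 5 kb on either side before matching, 10 of the 18 were matched, 55.6%. The share was 32.5% of all mock loops and 18.7% of the others on chromosome 4. That comparison was not matched for anchor width or spacing, and extension can join neighbouring anchors. From the PET counts of the 18 loops and the share of all mock loops relisted at each count, 2.90 would have been listed again. Of the 4 PDS loops, 3 were in the mock list, a share of 75.0%, against 39.1% in the series. All 3 shared loops had identical anchors in both lists, and their PETs summed to 22 in mock-treated and 12 in PDS-treated cells. Fewer PETs after PDS treatment were found in 2 of the 3, against 55.3% of all shared loops.

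The 3 shared loops had an anchor in common, anchor 7, between ALB and AFP. All 3 mock loops of this anchor, to anchors 1, 6 and 8, were in the PDS list, where they had 4 PETs each. In the series, 6658 anchors had exactly 3 mock loops, and all 3 were relisted at 22 of them, 0.330%. Those anchors were not matched for PETs, and the mock loops of anchor 7 had 13, 6 and 3. Of all mock loops with 13, 6 and 3 PETs, 71.9%, 26.4% and 5.97% were relisted. Anchor 7 was picked out after its values had been seen, so the share of 0.330% is a description. Its listed loops held 22 mock PETs (13.8 to 33.3) and 12 PDS PETs (6.20 to 21.0). Their ratio of 0.545, with an interval of 0.274 to 1.09, is one of relisted loops only. It is therefore not comparable with the ratios of all listed loops. Loops of the series in both lists held 39128 mock and 29560 PDS PETs. The listed loops of anchor 6 at ALB held 49 mock and 4 PDS PETs, and those of anchor 8 at the AFP start site 24 and 4. These sums leave out the PETs of unlisted loops, so no ratio is given for anchors 6 and 8. Of the 9 mock loops of anchor 6, 1 was listed again, which is also the median for the 190 anchors with 9 mock loops.

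**Figure D3:**
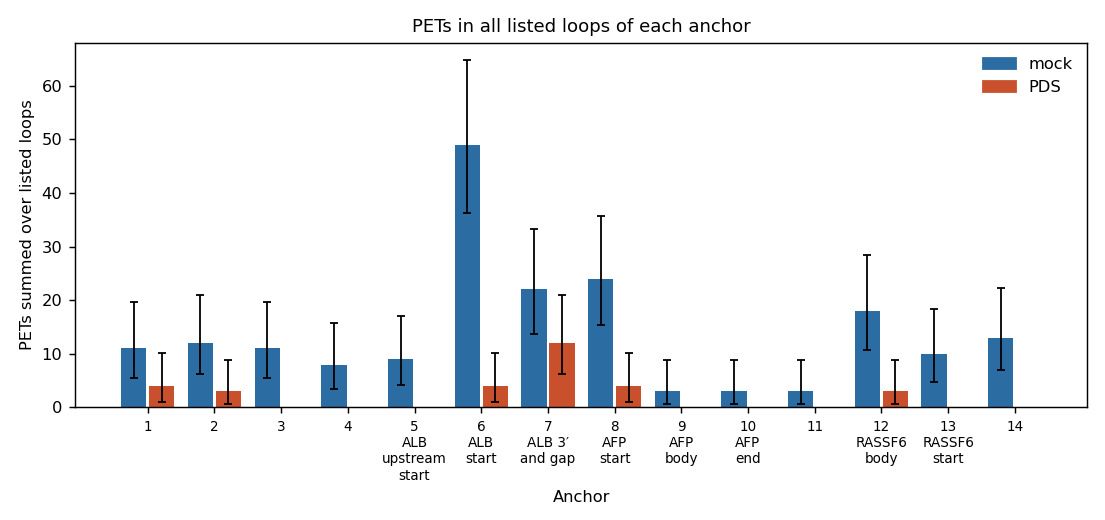
PETs summed over all listed loops of each of the 14 anchors, with mock-treated cells in blue and PDS-treated cells in red. Error bars are exact 95% Poisson intervals, and anchors without a red bar had no PDS loop. Anchor 6 at the ALB start site has 49 mock and 4 PDS PETs, and anchor 7, between ALB and AFP, has 22 and 12. Anchors 12, 13 and 14 include loops that do not reach the family.

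At least 1 anchor lay within 1 kb of a protein-coding start site in 16 of the 18 mock loops, 88.9% (67.2 to 96.9%), against 46.0% in the series. Choosing loops near genes raises this share, which was 51.4% for the 59349 mock loops chosen by the same windows around any protein-coding gene. With canonical start sites alone the share in the family was 72.2%, and the share of the series by that rule is not given here. Anchors 5, 7 and 9 count as promoter anchors only through other annotated transcripts. In 15 of the 16 the start site was that of ALB or AFP, any annotated transcript counted. The anchors of the family were wider than usual, with a median of 10453 bp against 7099 bp for the series. A G4 motif was in an anchor of 7 mock loops, 38.9% (20.3 to 61.4%), against 75.2% in the series and 62.1% for the other mock loops of chromosome 4. The G+C content of the mock loop anchors had a median of 36.1% in the family and 43.3% in the series, and the part of base composition in the share of motifs was not tested. Of the 7 mock loops with a motif 3 were listed again after PDS treatment, all of them loops of anchor 7, and of the 11 without one 0 were. In the series, 11.5% of mock loops with a motif (11.3 to 11.8%) and 9.50% without one (9.06 to 9.96%) were relisted.

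The family was set beside 22 other genes for hepatic plasma proteins, counted in the same windows. Some of the 22 are neighbouring genes whose windows can share loops, so the counts by gene are not independent. All 22 had at least 1 mock loop, with a median of 13, against 85.5% of all protein-coding gene windows with a mock loop and a median of 6. Of the 22, 19 had fewer than the 17 loops of ALB. Most of all protein-coding gene windows also had fewer, as their median of 6 shows, so this count does not set ALB apart. APOB, which encodes the structural protein of low-density lipoprotein, had the most, with 38 mock and 11 PDS loops. TF, for transferrin, had counts near those of ALB, with 18 mock and 4 PDS loops, and 77 and 15 PETs. PLG, for plasminogen, had the fewest, with 2 mock loops and no PDS loop. Of the 19 genes with 5 or more mock loops, 18 had a ratio of 0.5 or less, with a median of 0.222 and a range of 0.0909 to 0.533, against 94.1% of all such windows. HP, for haptoglobin, was the exception, with 15 mock and 8 PDS loops.

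Among 12 genes for transcription factors known to act at ALB or AFP, 9 had 5 or more mock loops and all 9 had a ratio of 0.5 or less, against 94.1% of all such windows. Their median ratio was 0.286, against 0.214 for all such windows. FOXA1 and CEBPB had the most mock loops, 60 and 56, and 30 and 16 PDS loops. FOXA3 had the fewest, with 2 loops in each list. The 3 protein-coding genes outside chromosome 4 nearest to ALB in both PET counts, by the distance of log2(PETs + 1) over the 2 lists, were BEST1, FTH1 and VEGFA. Each had 79 mock and 15 PDS PETs in its window, the same as ALB, in 20 mock and 5 PDS loops, and BEST1 and FTH1 are neighbours that share theirs.

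**Figure D4:**
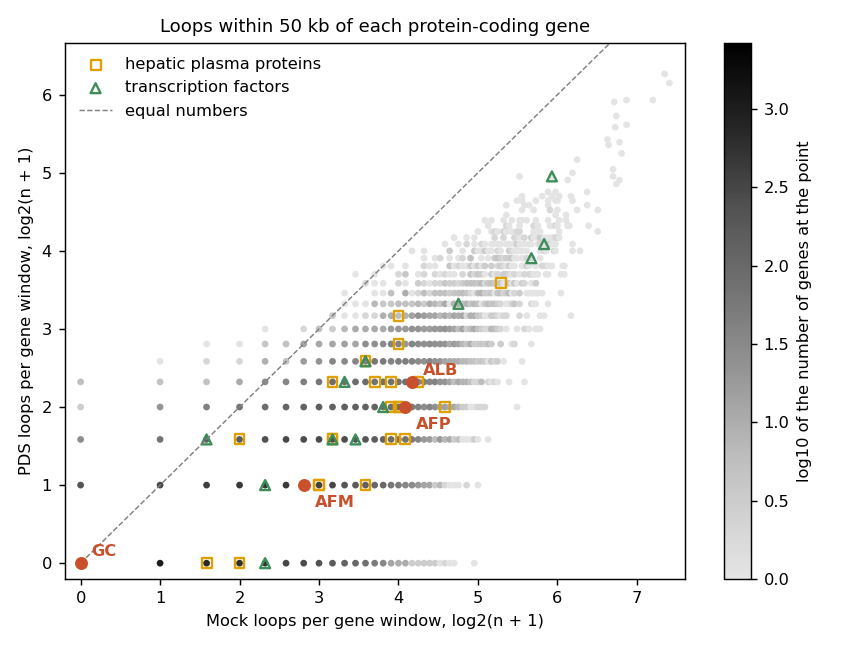
Loops in the window of each protein-coding gene (body and 50 kb on either side) in mock-treated cells (horizontal) and PDS-treated cells (vertical), both as log2(n + 1). Grey points are all 20033 genes, darker where more genes fall on a point, red points the 4 family members, squares 22 plasma protein genes and triangles 12 transcription factor genes. ALB (17 and 4 loops), AFP (16 and 3) and AFM (6 and 1) lie below the dashed line of equal numbers, and GC is at 0 in both.

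Repeated sequence could misplace reads at some of these anchors. Of all stretches of 31 bases, the share with another copy elsewhere in the genome was 7.01% in anchor 6, 5.92% in anchor 7 and 2.85% in anchor 8, which carry the strong loops. It was 38.9% in anchor 2, and its part in the loops of that anchor was not tested.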

How the data were processed

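The authors aligned paired-end reads of POLR2A HiChIP-seq libraries from HepG2 cells to GRCh38 and used HiC-Pro 3.1.0 to place deduplicated reads on MboI fragments, as also given in the submitters' processing notes. They deposited 1 loop list per condition, in which each value is a whole-number count of PETs with no scaling for depth. The tool that set the anchors and the way the 2 replicates were combined are not given in the sources used here. Listed PETs totalled 254647 (mock) and 67001 (PDS), and library depth is unknown.

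Loops were grouped by the condition of their list. The members and gene lists were chosen with earlier results of these data known. Loops of both lists were matched when both anchors overlapped by at least 1 bp. Genes were those of GENCODE 44, and a promoter anchor came within 1 kb of the start site of any transcript. Promoters are 250 bases before to 50 after each RefSeq start site. The interval of a ratio was derived from the Wilson interval for the fraction of the combined count that was PDS, shares have Wilson intervals and counts exact Poisson intervals (scipy 1.17.1, Python 3.11.15, numpy 2.4.6). No p-value was computed, since no values per replicate were used. The genes named were the 4 members, those with a start site within 1 kb of an anchor of a family loop, up to 4 examples from each list (highest and lowest mock loop counts) and the 3 genes outside chromosome 4 nearest to ALB in PETs. ANKRD17, TF and HP were named after their values were seen. Loop matching, windows, motifs and ratio intervals were tested on simulated data. A gene of the transcription factor list and a motif are not reported here. The alternatives were other PET minimums, flanks, anchor rules, distances, matching rules, scalings, promoter widths and motif definitions.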

Additional observations from a re-analysis of the deposited data

How the results depend on the processing

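Of 72 values under alternative settings, 50 stayed close to the reported ones and 22 moved beyond the counting interval, or by more than 1.5 times for counts. With at least 5 PETs, 6 mock loops (45 PETs in all) and 0 PDS loops (0 PETs) were counted, so both PDS/mock ratios were 0 and 0% of mock loops were relisted, and loops at a member promoter numbered 5 in the mock list and 0 in the PDS list. With anchors at least 20 kb apart, there were 10 mock loops (43 PETs) and 2 PDS loops (7 PETs). With both anchors in the windows there were 2 PDS loops with 8 PETs. The share of PDS loops also in the mock list was 100% under that rule, with gene bodies alone and with flanks of 20 kb, since each leaves out the single PDS loop that was not shared. Extending anchors by 5 kb before matching raised the share of relisted mock loops to 55.6%, as it joins neighbouring anchors. Dividing PETs by the list totals gave a PDS/mock ratio of PETs of 0.695 (0.404 to 1.20). A G4 motif was in 77.8% of mock loops with spacers of up to 12 bases and in 100% with runs of at least 2 G, definitions under which the series was not counted. Leaving out GC changed no value. No paired analysis was possible because each list combines both replicates, and leaving out each replicate was not run for the same reason. Library depth is unknown, and 11 of 18 mock loops have 3 PETs, the lowest listed count.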
